A study of Homo sapiens with 6 samples.

Results

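Regions enriched in an m6A immunoprecipitation and lying at the 3′ end of coding genes are described here, from the human glioblastoma line U-251 MG. N6-methyladenosine (m6A) is a methyl mark on adenosines of messenger RNA, written mainly by a complex around METTL3, and in many tissues and cell lines it is densest near stop codons and along 3′ untranslated regions. Reader proteins of the YTH family bind the mark there and affect splicing in the nucleus and decay in the cytoplasm, and FTO and ALKBH5 can remove it. TRA2A is an SR-like RNA-binding protein known as a splicing regulator.

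Cells carried a control short hairpin RNA (shNC), a hairpin against TRA2A (shTRA2A) or a hairpin against METTL3 (shMETTL3), and every condition has 1 library of immunoprecipitated RNA and 1 of input RNA, 6 libraries in all. The labels give neither the number of cell clones nor the time after knockdown. Each condition is represented by 1 list of peaks, so differences between conditions have no replicates behind them and were not tested. How deeply each library was sequenced is not known from the sources used here. A peak absent from a list was not called there, which is not the same as an absence of m6A. Ranges in parentheses are 95% intervals by the exact Clopper-Pearson method, which take in counting error and nothing else.

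A peak was taken as lying near the 3′ gene end if it was at most 1000 nt wide with a width that is a multiple of 25 nt, touched exactly 1 RefSeq protein-coding gene body on GRCh38, and had its midpoint in the last 10% of that body, read in the direction of the peak's strand. The 3 lists hold 17375 peaks and 4030 of them met the rule, 2452 of 9206 in shNC, 478 of 2736 in shTRA2A and 1100 of 5433 in shMETTL3. They are called end peaks below. A peak that passed the width rule and touched exactly 1 coding gene is called a one-gene peak, and there were 6616, 1636 and 3403 of these. Gene bodies include introns and their RefSeq table holds no exons, so stop codons and untranslated regions could not be placed, and end peaks are regions near an annotated gene end, not 3′ untranslated regions as such.

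The direction of the label was checked against annotated gene strands, which were at hand for 3326 of the 4030 end peaks. Of these, 52 lay on the strand opposite to their gene, 1.56% (1.17 to 2.05%), and so sat near its 5′ end. The strongest was the control peak of ZKSCAN7, a zinc finger gene (3:44557507-44557581, score 99.5). In the first 10% of gene bodies 14.2% of peaks were on the opposite strand, and in the middle 3.63%. By list, the opposite-strand share of end peaks was 0.94% (0.57 to 1.46%) in shNC, 2.72% (1.37 to 4.82%) in shTRA2A and 2.44% (1.53 to 3.67%) in shMETTL3. None of the 26 listed markers of other brain and blood cells had a one-gene peak in the control.

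Reference sequence was at hand only for 300-base windows around transcription starts and for miRNA hairpins, and 26 of the 4030 end peaks touch such a window. The sites below are shown because they are among the few places where an end peak and a reference sequence share GGACT, written GGACU in the hairpin, one form of the m6A consensus, on the strand of the peak. They come from RefSeq on GRCh38.p14, run 5′ to 3′ along that strand, and carry the motif in capitals.
RUBCN, shMETTL3 end peak, inside MIR922, chr3:197674534-197674563, minus strand: ucucccuguccuGGACUggggucagacugu
RUBCN, same peak and hairpin, chr3:197674496-197674519, minus strand: cagcagagaauaGGACUacgucau
PDZD2, shNC end peak, chr5:32108227-32108256, plus strand: tggtacagacacGGACTataaaaatctcca
EPHA5, shNC end peak on the strand opposite to the gene, chr4:65669983-65670010, plus strand: tagtgcagatctGGACTcggatcaaggg
The RUBCN peak spans 3:197674442-197674666 with a score of 7.69, and RUBCN encodes an inhibitor of autophagy. The PDZD2 peak spans 5:32108011-32108260 with a score of 17.1, and the EPHA5 peak shares 50 bases with the window of the antisense gene EPHA5-AS1. On the strand given, GGACT occurs in 25.2% of all 34943 promoter windows and GGACU in 8.83% of 1562 hairpins, so these matches are a description of 3 peaks and not of end peaks in general. Of the end peaks touching a window, 4 hold the motif there.

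Scores quoted here are those that the authors' peak caller gave. Their scale is not stated, and they were ranked only within a list. End peaks made up 37.1% of control one-gene peaks (35.9 to 38.2%), 29.2% of those of shTRA2A (27.0 to 31.5%) and 32.3% of those of shMETTL3 (30.8 to 33.9%). The control interval lies above both others as the lists stand. Of 3291 control genes with a one-gene peak 1524 had an end peak, against 386 of 1198 in shTRA2A and 857 of 2224 in shMETTL3. When each list was cut to its 2736 best-scoring peaks, the shares were 33.9% (31.7 to 36.1%), 29.2% and 32.3% (30.1 to 34.6%), and the intervals of control and shMETTL3 overlap. Among peaks wider than 75 nt the control interval of 36.3 to 39.6% overlaps both that of shTRA2A, 29.4 to 37.5%, and that of shMETTL3, 32.7 to 38.0%.

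Within the body, peaks concentrated towards the annotated end in every list. The final twentieth of the body held 24.0% of control, 18.6% of shTRA2A and 19.8% of shMETTL3 one-gene peaks, while the first 10% of the body held 6.35%, 9.05% and 8.17%. Inside the last 10% of the body the count of control end peaks went from 133 in the first hundredth of the body past the 90% mark to 382 in the hundredth from 98 to 99%, and was 337 in the last. At the threshold itself, 119 control peaks lay just outside (89 to 90% of the body) with a median score of 11.4, and 133 lay just inside with a median of 13.0. The corresponding counts were 36 and 33 in shTRA2A, with medians of 8.01 and 7.92, and 60 and 76 in shMETTL3, with medians of 8.51 and 8.60. Over all control end peaks the median score was 11.9, against 12.3 in the middle of bodies. Of control end peaks 7.54% (6.53 to 8.66%) were in the top 10% of one-gene peaks by score, against 11.7% (10.7 to 12.8%) in the middle. In shTRA2A these shares were 9.41% and 10.0%, and in shMETTL3 10.5% and 10.2%.

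**Figure D1:**
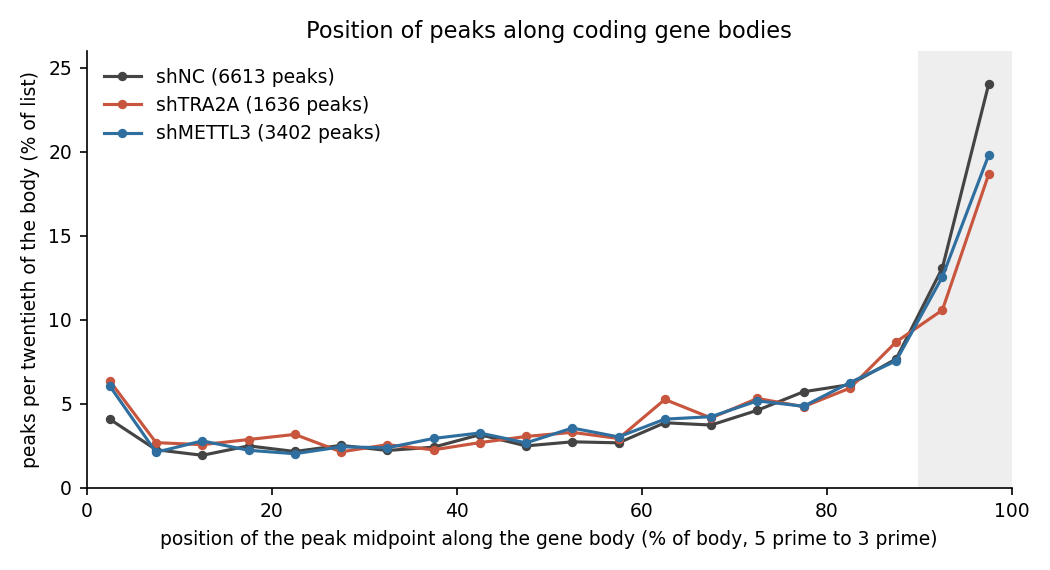
Share of each list's one-gene peaks (y axis, percent) in each twentieth of the gene body (x axis, percent of the body from 5′ to 3′), 1 line per list; the grey band is the last 10%. All lines climb steeply in the band, to 24.0% for shNC, 18.6% for shTRA2A and 19.8% for shMETTL3 in the final twentieth.

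In absolute terms the median distance from the midpoint of an end peak to the gene end was 2361 nt in shNC, 2153 nt in shTRA2A and 2316 nt in shMETTL3. Within 1000 nt of the end lay 23.0%, 25.1% and 26.1% of end peaks, and within 5000 nt 79.6%, 78.9% and 78.2%. The rule for end peaks and the length of the body bound these distances, so their likeness across lists is not read as a result. The share of one-gene peaks that were end peaks differed as the lists stand, with the limits at equal size and by width given above. Median body length was 79438 nt for control end peaks, 59584 nt for control peaks in the first 10% of bodies and 42026 nt for those in the middle.

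The share of peaks in the last 10% depended on body length. In the control it was 7.24% (4.54 to 10.9%) for bodies up to 5 kb, 37.4% for 20 to 50 kb and 48.4% (45.7 to 51.1%) for 100 to 200 kb. Median distance from control end peak to gene end went from 186.5 nt in the shortest bodies to 4661 nt in those over 200 kb, so the tenth nearest the end covers little sequence in a short gene. In a longer gene, TMCC1, an endoplasmic reticulum membrane protein, a control end peak (3:129670343-129671042, score 89.9) lay 22900.5 nt from the gene end. In bodies of 100 to 200 kb the shares were 35.7% (30.4 to 41.3%) in shTRA2A and 40.6% (36.7 to 44.5%) in shMETTL3, both below the control interval. Over 200 kb the control was at 44.3% (40.8 to 47.8%), shTRA2A at 33.3% (27.0 to 40.2%) and shMETTL3 at 46.1% (41.1 to 51.1%), and at 5 to 10 kb shMETTL3 was also above the control, with 21.6% against 16.9%.

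**Figure D2:**
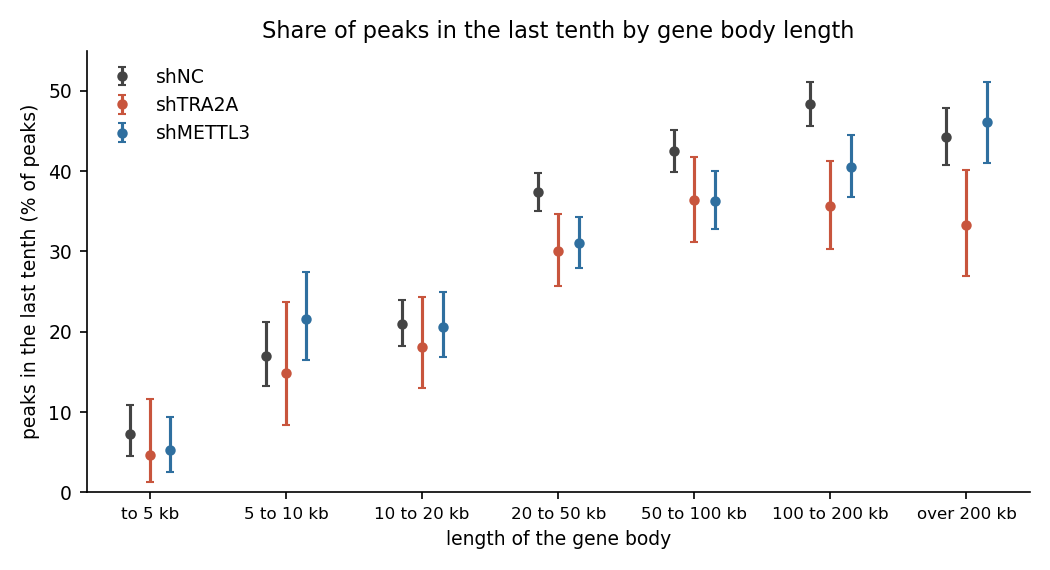
Share of one-gene peaks lying in the last 10% (y axis, percent, with exact 95% intervals as bars) by length of the gene body (x axis), 1 point per list. The control share goes from 7.24% in bodies up to 5 kb to 48.4% in those of 100 to 200 kb.

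Immediate early and stress transcription factors had no control end peak. Of the listed genes 15 had a control one-gene peak, 24 peaks in all. Their midpoints lay at 32.5 to 87.5% of the body with a median of 70.9%. The median body was 4201 nt long, and the median length of the last 10% was 420 nt. Whether the absence of end peaks goes beyond what such short bodies give was not tested. In shMETTL3, FOSL1 and FOSL2, both FOS-family subunits of AP-1, each had 1 end peak, with scores of 8.25 and 10.5.

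Median width was 100 nt in shNC and 75 nt in both knockdown lists in either place, and 9.34%, 2.30% and 2.91% of end peaks were 300 nt or wider, against 11.8%, 3.17% and 3.51% in the middle. If end peaks of 1 gene at most 100 nt apart count as 1 cluster, the 2452 control end peaks formed 2095 clusters, and 655 of them, 26.7%, shared a cluster with another, against 27.5% of control peaks in the middle of bodies. Of the 357 gaps inside these clusters 183 were exactly 25 nt. The 478 shTRA2A end peaks formed 435 clusters and the 1100 shMETTL3 end peaks 999. End peaks of 1 gene are therefore not independent sites. By gene, 1005 of 1524 control genes had a single end peak and 102 had 4 or more, against 4 of 386 in shTRA2A and 16 of 857 in shMETTL3.

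Genes with the most control end peaks included several with few or none in the knockdown lists, though being picked by the control tilts these counts towards it. ZBTB38, a zinc finger protein that binds methylated DNA, had 12 control end peaks between 3:141442600 and 3:141447874 with scores of 10.7 to 29.0, none in shTRA2A and 1 in shMETTL3. That 1 peak (3:141443900-141444124) starts at the same base as the strongest control peak of the gene. TENM3, a teneurin that guides neuronal wiring, had 9, 4 and 3 end peaks in shNC, shTRA2A and shMETTL3. ZNF721, a zinc finger protein, had 9, 0 and 1, and KAT6A, a histone acetyltransferase, 8, 0 and 3. CLMP, an adhesion molecule of cell junctions, had 8, 0 and 0, of which 7 were on the minus strand between 11:123070222 and 11:123073746 and 1 was on the plus strand at 11:123193013. PALM2AKAP2, a fusion locus with an anchoring protein for protein kinase A, had 7, 5 and 6, the most knockdown end peaks of the 6 genes named here.

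The first comparison asks how many control end peaks have a counterpart in the shTRA2A list. Sharing at least 1 base on the same strand was the rule, and 196 of 2452 control end peaks met it, 7.99% (6.95 to 9.14%). Over all control one-gene peaks the share was 8.6%, with 9.01% in the middle and 8.57% in the first 10% of bodies. The shMETTL3 list overlapped 422 of 2452, 17.2% (15.7 to 18.8%), against 17.3% over all one-gene peaks, 17.8% in the middle and 13.8% in the first 10%. With at least 50% of the peak covered the shares of control end peaks were 3.79% and 9.79%. Both comparisons use the same control list, and the shMETTL3 list is the longer of the knockdown lists. Cut to equal size, the lists gave 20.2% and 28.8% of 605 control end peaks. The shares with 50% covered and at equal size were computed for end peaks alone, without a share over all one-gene peaks.

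The strongest control end peaks had a counterpart far more often than the weakest. Among control end peaks in the lowest score quintile 0.596% were on an shTRA2A peak and 2.58% on an shMETTL3 peak, and in the highest 23.7% (19.7 to 28.0%) and 46.9% (42.1 to 51.8%). Peaks in the middle of bodies gave 26.1% and 45.5% in the highest quintile, inside those intervals. Width went the same way. Of control end peaks of 50 nt, 3.14% and 6.71% were overlapped, and of those wider than 400 nt 33.3% and 68.1%. A wider peak offers more bases to overlap, and width and score moved together, so their parts cannot be told apart here.

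**Figure D3:**
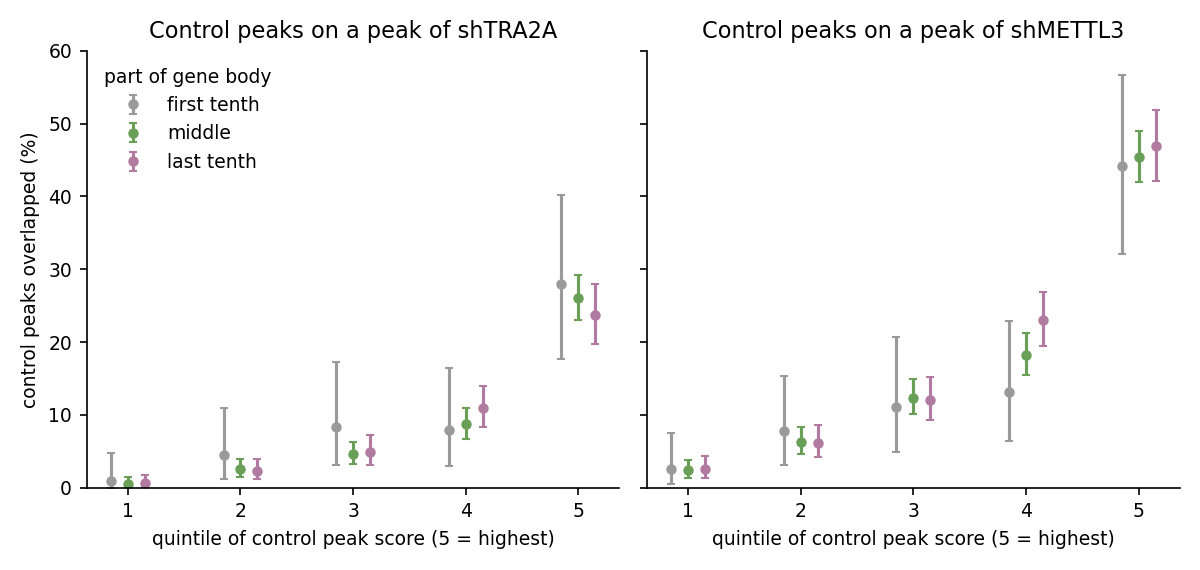
Share of control one-gene peaks that share a base with a peak of shTRA2A (left) or shMETTL3 (right) (y axis, percent, exact 95% intervals) by quintile of the control score (x axis), for the first 10%, the middle and the last 10% of the body. In the last 10% of the body the share goes from 0.596% to 23.7% on the left and from 2.58% to 46.9% on the right, with the middle of bodies close beside it.

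Read the other way, knockdown end peaks were often on a control peak. Of 478 shTRA2A end peaks 231 were, 48.3% (43.8 to 52.9%), against 41.1% over all shTRA2A one-gene peaks, 39.8% (36.8 to 42.9%) in the middle of bodies and 27.0% in their first 10%. For shMETTL3 it was 463 of 1100, 42.1% (39.2 to 45.1%), against 39.3% over all, 39.8% in the middle and 25.2% in the first 10%. Cut to equal size, the shares were 32.8% and 35.4%. They were computed for end peaks alone, so whether the differences from the middle of bodies remain at equal size is not shown. Between the knockdown lists, 139 of 478 shTRA2A end peaks were on an shMETTL3 peak, 29.1% (27.1% over all), and 130 of 1100 shMETTL3 end peaks on an shTRA2A peak, 11.8% (12.6% over all).

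Along the last 10% of the body the share of knockdown end peaks on a control peak varied with the distance to the gene end. For shTRA2A it was 37.5% (28.8 to 46.8%) within 1 kb, 37.0% (27.9 to 46.9%) at 1 to 2 kb, 61.3% (52.0 to 70.1%) at 2 to 4 kb, 62.5% (51.5 to 72.6%) at 4 to 8 kb and 41.9% (27.0 to 57.9%) beyond. For shMETTL3 the same distances gave 29.97% (24.7 to 35.6%), 43.1% (36.2 to 50.2%), 48.3% (42.4 to 54.2%), 53.3% (46.1 to 60.5%) and 36.3% (27.8 to 45.4%). Both lists were thus highest at 2 to 8 kb. For shMETTL3 the interval at 1 to 2 kb overlaps those at 2 to 4 kb and 4 to 8 kb. Beyond 8 kb the interval of each list overlaps its own at 2 to 4 kb, and that of shTRA2A is wide. The share also varied with body length, which limits the distance possible inside the last 10%. For shTRA2A it was 32.1% in bodies up to 20 kb and 62.3% over 200 kb. For shMETTL3 it was 26.9% up to 20 kb, 48.5% at 100 to 200 kb and 37.4% over 200 kb. Distance and body length cannot be told apart here. Control end peaks on an shTRA2A peak ranged from 5.80 to 9.37% over the same distances, and on an shMETTL3 peak from 13.8 to 19.0%.

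For each overlapped control end peak the nearest midpoint of the other list was taken, which need not belong to the overlapping peak. In shTRA2A it lay further 3′ for 81, further 5′ for 94 and at the same place for 21. In shMETTL3 the counts were 183, 205 and 34. Of the control end peaks without an overlap, 9.13% had an shTRA2A peak with its midpoint within 1000 nt and 19.9% an shMETTL3 peak. Of the knockdown end peaks off any control peak, 36.0% in shTRA2A and 34.5% in shMETTL3 had a control midpoint within 1000 nt. These distances were measured for end peaks alone, so the shares are not read as particular to them. By gene, 250 of 1524 control genes with an end peak had one in shTRA2A, 16.4%, which is 64.8% of the 386 shTRA2A genes. For shMETTL3 the shared number was 515, 33.8% of control and 60.1% of 857 shMETTL3 genes. In the middle of bodies the corresponding shares were 21.2% and 55.2% with shTRA2A and 38.7% and 55.5% with shMETTL3. They were thus higher there as a share of the control and lower as a share of the knockdown lists. These shares need a peak in the same part of the body, and the middle is by far the larger part. With a peak anywhere in the gene counted, control genes with an end peak gave 26.12% for shTRA2A and 44.49% for shMETTL3. Control genes with a middle peak gave 26.02% and 44.69%, so the lower control share was not seen. On the control, shTRA2A and shMETTL3 genes gave 73.8% and 69.1% for end peaks and 63.6% and 63.2% for the middle.

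The strongest control end peaks with a counterpart in both knockdown lists were in HMGN5, a nucleosome-binding protein, PPIG, a nuclear cyclophilin with an SR domain, and NSRP1, a splicing regulator of nuclear speckles. In HMGN5 the control peak X:81114624-81115148 (525 nt, score 199) was met by shTRA2A peaks at 81114674-81114898 and 81114999-81115148 and by 1 shMETTL3 peak at 81114649-81115148. All 3 lists thus mark the same stretch. The shMETTL3 peak next to it, 1048 nt wide, has a width off the 25 nt grid and is not counted as an end peak. In NSRP1 the control peak 17:30185095-30185769 (score 118) was met by 30185045-30185519 in shTRA2A and 30185070-30185769 in shMETTL3. PPIG had 4 control, 2 shTRA2A and 3 shMETTL3 end peaks, all from 2:169636122 to 2:169637367. RNF145, a ubiquitin ligase, had a control peak at 5:159158284-159158583 (score 72.6), and both the first shTRA2A peak and an shMETTL3 peak begin at that same base. CCPG1, an endoplasmic reticulum autophagy receptor, CHD9, a chromatin remodeller, PALM2AKAP2 and ARHGAP29, a GTPase-activating protein, completed the group with scores of 68.4 to 78.1.

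Control end peaks of like strength had no counterpart in either list. The peak of MET, the hepatocyte growth factor receptor, spans 7:116797704-116798253 (550 nt, score 82.2) and lies 398.5 nt from the gene end. No knockdown end peak was called in MET. Further upstream in the same gene, control peaks began at 116699264 and 116699689. The second of them, 116699689-116699963, holds 1 shTRA2A peak, at 116699714-116699813. SAMD9, an interferon-induced antiviral factor, had 2 control end peaks (7:93100088-93100437, score 79.7, and 93100463-93100762, score 65.3). All 6 of its shMETTL3 one-gene peaks lay outside the last 10%. ENAH, an actin regulator (score 77.5), had no other one-gene peak in any list. PDGFC, a platelet-derived growth factor (score 69.4), had an shMETTL3 peak of 4666 nt that begins just beyond the control peak, at 4:156763129. PDGFC also had an shMETTL3 end peak off the control peak, at 4:156772803-156772852 (score 16.9). SP100, a nuclear body protein, had 3 control end peaks, the strongest with a score of 51.3.

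XAF1, a proapoptotic interferon target, needs a caution on strand. Its annotated strand is plus, and its 5 control end peaks lie there, the strongest at 17:6774208-6774582 (score 56.5). On the minus strand a control peak stands at 17:6774206-6774580 (score 57.1), and the plus-strand peak 6775083-6775532 (39.4) has a partner at 6775081-6775530 (38.8). Each such pair is offset by 2 nt. Whether the strand of either member is the true one was not tested.

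**Figure D4:**
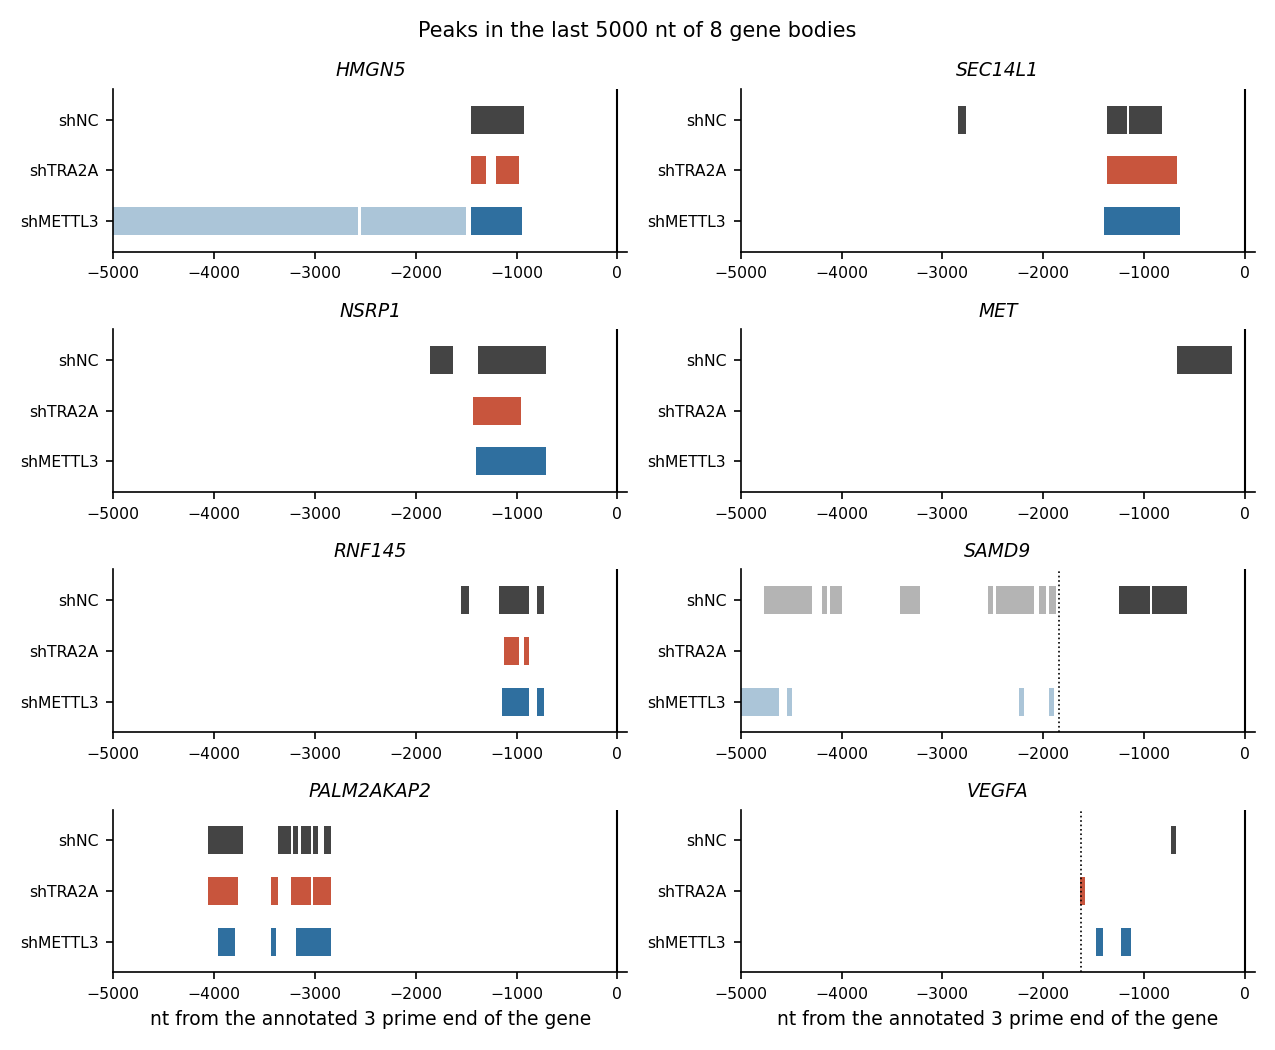
Peaks in the last 5000 nt of 8 genes as bars along the distance to the annotated gene end (x axis, nt, end at 0), 1 row per list; solid bars are end peaks, pale bars are other peaks, and a dotted line marks the start of the last 10% of the body where it lies within 5000 nt. HMGN5, NSRP1, RNF145 and PALM2AKAP2 carry end peaks at the same place in all 3 lists, while MET and SAMD9 carry them in the control list alone.

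Other strong control end peaks were met in 1 knockdown list. With a counterpart in shTRA2A and none in shMETTL3, the highest were in SEMA3A, a secreted axon guidance factor (7:83961427-83961776, score 99.5), ATP2B1, a plasma membrane calcium pump (score 99.0), and PPP4R2, a phosphatase subunit (score 60.7). SEMA3A still had 2 shMETTL3 end peaks, 1 of them at 7:83961152-83961201 on the neighbouring control peak. EIF3A, a translation initiation factor also described as an m6A reader, had a control and an shTRA2A end peak with identical coordinates, 10:119035970-119036094. MEIS2, a homeobox regulator (score 59.1), had 4 control and 5 shTRA2A end peaks. Of these, 2 in each list lie on the plus strand near 15:37099364 and 15:37099810, opposite to the gene and thus at its 5′ end. PCDH17, a protocadherin, was the weakest of the group with a score of 38.7.

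With a counterpart in shMETTL3 and none in shTRA2A, the highest were in SECISBP2L (score 86.4), BRWD1, a bromodomain protein (70.4), KBTBD2, a ubiquitin ligase adaptor (66.5), BMPR2, a receptor of bone morphogenetic proteins (63.3), PLK2, a polo-like kinase (62.3), and IL7R, the interleukin 7 receptor (55.2). The SECISBP2L counterpart is a peak of 3615 nt, off the 25 nt grid, that overlaps the control peak by its edge. IL7R had 2 control end peaks, and the shMETTL3 peak 5:35877659-35877783 matches 1 of them base for base. KBTBD2 had 3 control, 2 shTRA2A and 5 shMETTL3 end peaks, and 1 of the shTRA2A peaks (7:32870122-32870196) lies on a weaker control peak. The categories above thus hold for single peaks and not for whole genes.

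Among knockdown end peaks off any control peak, the strongest of shTRA2A were in CSF1, the macrophage growth factor (1:109929130-109929454, score 17.3), VEGFA, the angiogenic growth factor (6:43784857-43784906, score 16.8), and TAF15, an RNA-binding protein (score 16.6). VEGFA had end peaks in every list at different places. The control peak is at 6:43785757-43785806 and the shMETTL3 peaks are at 43785007-43785081 and 43785257-43785356. PELP1, a nuclear receptor coregulator, had 2 shTRA2A end peaks and no one-gene peak in the other lists. ACIN1, a splicing-associated protein, had 4 control one-gene peaks, none of them an end peak. The ARIH1 peak (score 12.5) lies on the strand opposite to its gene.

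In shMETTL3 the strongest such peak was in HNRNPUL1, an RNA-binding protein (19:41307047-41307321, 275 nt), with a score of 151, the highest of the shMETTL3 end peaks. The control list has a 75 nt peak at 41306547-41306621 (score 10.9), a little upstream. SEC14L1, a lipid-binding protein, had an shMETTL3 peak of 75 nt at 17:77205234 (score 77.2) away from a second site near the gene end that all 3 lists mark. TXNDC5, a protein disulfide isomerase, and TRIM4, a ubiquitin ligase, had end peaks of 50 nt in shMETTL3 alone, with scores of 57.3 and 46.5. SEL1L, part of endoplasmic reticulum associated degradation, and RABEP1, an effector of RAB5, had scores of 41.3 and 41.0, and both had other end peaks in the control.

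Genes were then followed in lists chosen by function. Over all genes, 173 of the 1524 with a control end peak had 1 or more of them overlapped in shTRA2A, 11.4% (9.80 to 13.1%), and 349 in shMETTL3, 22.9% (20.8 to 25.1%). The counts below are read against these, and most lists are too small for their intervals to leave that range.

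Over all genes 1524 of 3291 with a control one-gene peak had an end peak, 46.3%. Among RNA methyltransferases and their cofactors 3 of 7 genes with a control one-gene peak had an end peak, and none was overlapped in either knockdown. They were METTL16 (score 14.7), VIRMA (10.96) and PCIF1 (7.59). Of demethylases and readers 5 of 11 had one, with EIF3A and YTHDC1 overlapped in shTRA2A and IGF2BP2 in shMETTL3. YTHDF2, a cytoplasmic reader, and IGF2BP3 had control end peaks with no counterpart. In cleavage and polyadenylation, where 3 of 7 genes had an end peak, RBBP6 had 5, 3 and 3 end peaks in shNC, shTRA2A and shMETTL3, and its strongest (16:24571414-24572063) scored 52.0. PAPOLA, the poly(A) polymerase, had 2, 1 and 1, and both genes were overlapped in both lists. WDR33, which recognises the polyadenylation signal, had 1, 0 and 0. Of deadenylation, decay and 3′ untranslated region binding genes 10 of 18 had an end peak. DDX6, an RNA helicase of P-bodies (score 38.8), was overlapped in both lists and no other was in either, although UPF1, the central factor of nonsense-mediated decay, had 4 control end peaks. SR proteins and splicing factors had end peaks in 7 of 17 genes, and SRSF11, with 4, 1 and 2, was the member overlapped. SRPK2, a kinase of SR proteins, went the other way with 0, 3 and 1.

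In the receptor kinase, RAS and PI3K list 18 of 24 genes had a control end peak, against the 46.3% of all genes; the difference was not tested. EGFR, with 6, 1 and 1, and IRS1, an insulin receptor substrate, were overlapped in shTRA2A, and 7 genes in shMETTL3, among them RICTOR, a subunit of mTOR complex 2 (score 39.5), PIK3CA, a catalytic subunit of PI3-kinase (23.7), and PIK3R1. FOXO1, a transcription factor downstream of AKT, had 4 control end peaks, the best with a score of 42.9, and no one-gene peak in the knockdown lists. Endocytosis and recycling genes had control end peaks in 8 of 12 cases, with none overlapped in shTRA2A and CAV1, the caveolar coat protein, and RAB11FIP2, an effector of RAB11, overlapped in shMETTL3. RAB8A, a vesicle GTPase, had 5, 0 and 0, and EHD1, a recycling ATPase, 1, 0 and 0. In shTRA2A 5 genes of this list had end peaks, and 4 of them, EPS15L1, EHD2, EHD4 and SNX27, had none in the control. Over all shTRA2A genes it was 136 of 386, a smaller share, and the difference was not tested on so few genes.

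Interferon-stimulated genes had end peaks in 12 of 24 cases, 22 peaks in all. None was overlapped in shTRA2A, and RIGI, the cytoplasmic RNA sensor, was the gene overlapped in shMETTL3 (9:32457277-32457326, control score 28.2). RNF213, a large ubiquitin ligase, had 3 control and 2 shMETTL3 end peaks at different places, and PARP14 had 1, 0 and 0. An overlap in 0 of 12 genes allows up to 26.5% by the exact interval, which holds the 11.4% over all genes. No IFIT gene entered, since none had a control one-gene peak.

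Chromatin regulators contributed 74 control end peaks in 25 of 50 genes. Of these genes 3 were overlapped in shTRA2A and 9 in shMETTL3, where the interval of 17.97 to 57.5% holds the 22.9% over all genes. CHD9 was overlapped in both lists, KAT6B, a histone acetyltransferase, likewise, and ARID1A, a SWI/SNF subunit with 7, 1 and 3 end peaks, in shTRA2A. SETD5, a SET-domain protein, had 5, 0 and 4 and KMT2E 5, 0 and 2, while KMT2C, a histone methyltransferase, had 7, 0 and 0, with 1 control end peak overlapped by an shMETTL3 peak that is no end peak. In shMETTL3, 22 chromatin genes had an end peak, 7 of them without one in the control against 342 of 857 over all genes, KDM4A, a histone demethylase, among these.

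Cell cycle genes had end peaks in 8 of 12 cases, none overlapped in shTRA2A and 5 in shMETTL3, 62.5% (24.5 to 91.5%), an interval over 8 genes that begins just above the 22.9% over all genes. MKI67, the proliferation antigen, had 4, 0 and 3 and AURKA, a mitotic kinase (20:56369964-56370213, score 25.99), 1, 0 and 1. E2F3 and MCM3 had control end peaks that were not overlapped. Matrix and adhesion genes had end peaks in 16 of 22 cases, with none overlapped in shTRA2A, which allows up to 20.6%, and 5 in shMETTL3. They included LAMC1, a laminin chain (score 34.0), VCAN, a proteoglycan (32.9), and LOXL2, a lysyl oxidase. In shTRA2A 9 matrix genes had an end peak, 6 of them without one in the control: COL1A2, MMP14, TIMP2, ITGA5, ITGB8 and PXN. Over all genes it was 136 of 386, a smaller share, and the difference was not tested on so few genes.

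Glioma, neural and mesenchymal regulators had end peaks in 8 of 22 cases, and 4 were overlapped in each knockdown list, with an interval of 15.7 to 84.3%. MEIS2, NOTCH2, a Notch receptor (1:119914853-119915302, score 52.3), and ZEB2 were the 3 overlapped in both, ZEB1 in shTRA2A and RUNX2 in shMETTL3. NFIB, a nuclear factor of glial development (score 33.8), and TEAD1 had control end peaks without a counterpart. This list's interval lies above the 11.4% over all genes for shTRA2A, while the list was chosen with earlier results known and holds only 8 genes. Its control end peaks had a median score percentile of 77.7 among control one-gene peaks and a median width of 150 nt. Over all control end peaks these medians were 48.5 and 100 nt. Whether the overlap goes beyond what such scores and widths give was not tested.

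Zinc finger genes named ZNF were the largest list, with 157 control end peaks in 82 of 215 genes. In shTRA2A 7 genes were overlapped, 8.54% (3.501 to 16.8%), and in shMETTL3 12, 14.6% (7.80 to 24.2%), below the 22.9% over all genes with an interval that still holds it. The median score percentile of the ZNF control end peaks was 33.7, against 48.5 over all control end peaks. ZNF292, with 7, 3 and 2 end peaks and a best control peak at 6:87254883-87255732 (score 66.5), and ZNF131, with 1, 1 and 2, were overlapped in both. ZNF675 (19:23653283-23653982, score 49.2), ZNF148, with 5 control end peaks, ZNF331 and ZNF608 were overlapped in neither. None of the 16 listed canonical histone genes had a control one-gene peak anywhere in the body.

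**Figure D5:**
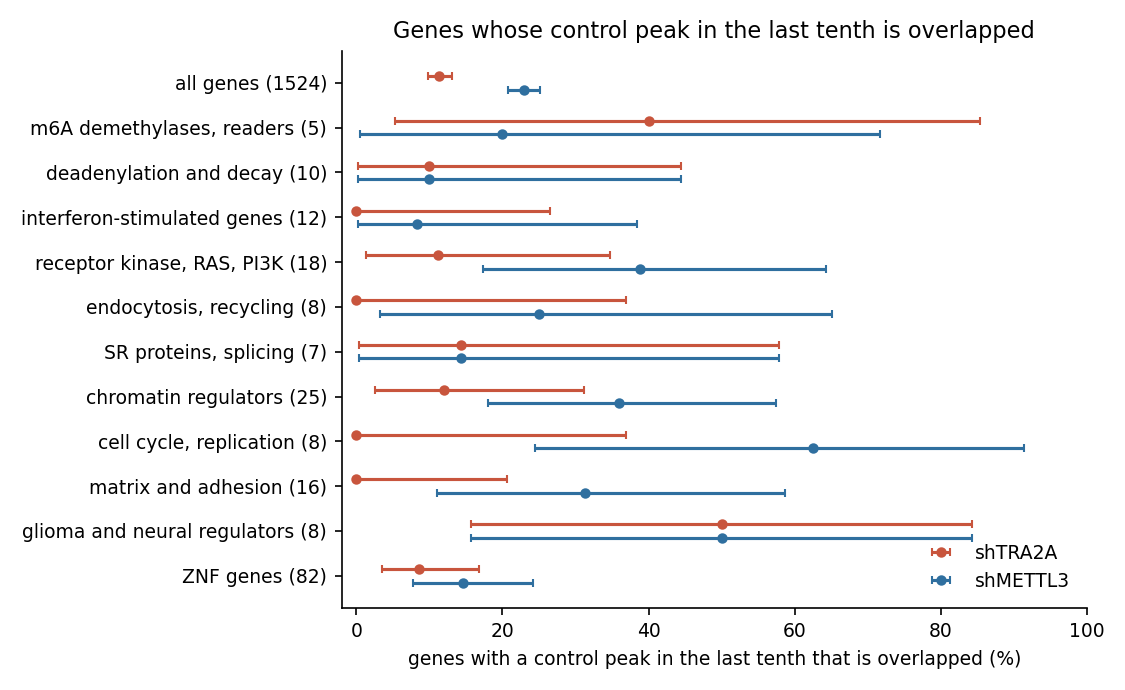
Share of genes with a control end peak that is overlapped in shTRA2A or shMETTL3 (x axis, percent, exact 95% intervals) by gene list (y axis, number of genes with a control end peak in parentheses, lists of 5 or more). Most intervals hold the values over all genes, 11.4% and 22.9%; for the glioma and neural list 4 of 8 genes are overlapped in each knockdown list, 3 of them in both.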

How the data were processed

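The authors deposited 1 BED file of 12 columns for each of 3 conditions. Column 5 is the score from the authors' peak caller, and the sources used here give neither the caller nor the scale of that score. Per the submitters' processing notes, reads were handled with HISAT2 2.2.1, SAMtools and featureCounts 2.0.1 on GRCh38. Of 4 lists 1 matches no label, equals the shTRA2A list byte for byte and was not used.

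Peaks were given a gene body from RefSeq (GRCh38.p14, 20052 coding genes), and strands of 15842 genes came from RefSeq promoter windows. Overlap means at least 1 shared base on the same strand. The code, in Python 3.11.15 with pandas 2.3.3 and scipy 1.17.1, was tested on simulated data, and 0 of 17375 peaks differed from bedtools 2.31.1. Coordinates count from 1.

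The members and gene lists were chosen with earlier results of these data known. Named genes are the strongest end peaks per overlap category (8 in both or neither, 6 in each other), the 6 genes with most control end peaks and up to 4 genes per list, ties broken by width and symbol, with locus-number genes passed over. Other names, among them list members given by their counts, were chosen after their values were seen. Cutting lists to equal size for the share of end peaks, and taking direction from annotated strand, were alternatives added after the data were seen. Peaks of 1 gene share a transcript, so intervals may be too narrow.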

Additional observations from a re-analysis of the deposited data

How the results depend on the processing

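With 11 alternatives, 40 of 65 recomputed values moved by less than their counting interval and 25 moved further. The 40 include the shTRA2A share of end peaks with lists cut to equal size, which could not move because that list is the smallest. Ignoring strand, taking direction from the majority strand of a gene's peaks and taking it from the annotated strand moved none. The values are shares in percent. The overlaps are given as control end peaks in shTRA2A and in shMETTL3, then shTRA2A and shMETTL3 end peaks on the control (7.99, 17.2, 48.3 and 42.1 as reported).

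Requiring 50% of the peak to be covered gave 3.79 and 9.79 for the control peaks and 37.4 for shMETTL3. Midpoints within 100 nt gave 15.2 for control peaks in shMETTL3 and 38.5 and 34.4 for the knockdown peaks. The better-scoring 50% of each list gave 10.1 and 19.6 for the control peaks. Lists cut to the size of the smallest gave 20.2, 28.8, 32.8 and 35.4, and a control share of end peaks of 33.9. Regular peaks of the other list alone gave 42.7 and 38.3 for the knockdown peaks. Peaks wider than 75 nt gave 6.74 for control peaks in shTRA2A, 47.3 for shMETTL3 peaks on the control, and end peak shares of 33.4 in shTRA2A and 35.3 in shMETTL3. With the last twentieth of the body the end peak shares were 24.0, 18.6 and 19.8 in shNC, shTRA2A and shMETTL3, and with the last 20% of it 50.9, 43.8 and 46.1. Apart from the list size, the width limit and the cutoffs themselves, the cause was not tested.

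No paired analysis was possible because each condition has 1 immunoprecipitated and 1 input library and 1 peak list. Depth, peak threshold and list size cannot be told apart from the conditions.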

Other observations

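Some genes had as many end peaks in a knockdown list as in the control, or more. TENM2, a teneurin, had 4 control, 7 shTRA2A and 4 shMETTL3 end peaks. ARSJ, an arylsulfatase, had 4, 1 and 5, and MTCL2, a microtubule-associated protein, 3, 3 and 5. ADGRL2, an adhesion receptor, had 4, 0 and 4. GLI3, a Hedgehog pathway transcription factor, had 1, 1 and 4. These genes were picked by their knockdown counts, and no difference was tested.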
